A study of Mus musculus with 203 samples.

Results

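Expression of 9 complement genes was followed through interleukin 4 (IL4) treatment and KDM1A depletion in a mouse macrophage line. The genes were taken by symbol from a fixed set of names (C1qa, C1qb, C1qc, C4b, C3, Cfb, Cfp, C3ar1 and C5ar1), and each had 1 row among the 25094 genes of the RNA-seq table. All 9 members passed the filter on low values, a log2 value no lower than 1 in 4 or more libraries, which left 12905 genes for testing. RAW cells are the established mouse macrophage line RAW264.7, labelled with the strain BALB/c, and were transduced with lentivirus carrying a short hairpin RNA against GFP (shGFP, the control hairpin) or against Kdm1a (shKDM1A). KDM1A is a histone demethylase. Each hairpin was represented by 1 puromycin-selected stable line, so the knockdown and the line cannot be told apart. The 4 groups were shGFP and shKDM1A cells, each left without IL4 (control) or given IL4 at 20 ng/ml during 6 h, and each group held 4 libraries. The study describes its replicates in general as biological, but the labels do not say whether the libraries of a group came from separate cultures, so p-values measure only the spread between these libraries, which may be technical. All 9 genes are also listed in a table for primary macrophages of the bone marrow (BMDMs), from WT mice and from mice lacking Gps2 in macrophages, but that table holds the authors' comparisons only and was not used here.

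The complement system is a cascade of secreted proteins that tags microbes and dying cells and calls in phagocytes. The classical pathway starts with C1q, assembled from the products of C1qa, C1qb and C1qc, and continues through C4. All pathways meet at C3, whose cleavage releases the peptide C3a, and the alternative pathway amplifies this step with factor B (Cfb) and properdin (Cfp), which stabilises the convertase. C3a and the later fragment C5a act on the receptors C3AR1 and C5AR1 of myeloid cells. The liver makes most circulating C3, C4 and factor B, while macrophages are a main source of C1q and myeloid cells of properdin.

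The promoters of C3 and C3ar1, which rose most with IL4, of C1qc, for the C1q chains, and of C5ar1, a receptor with no IL4 call, are shown so that members with different responses can be set side by side. Promoter sequences were found for 6 of the 9 members in RefSeq (GRCm38.p6), and none was found for C1qa, C4b and Cfb. The 250 bases before the start site are given 5′ to 3′ on the minus strand, with motif matches in capitals, for C3 (chr17:57228137-57228386), C3ar1 (chr6:122856158-122856407), C5ar1 (chr7:16259339-16259588) and C1qc (chr4:136892915-136893164).
C3: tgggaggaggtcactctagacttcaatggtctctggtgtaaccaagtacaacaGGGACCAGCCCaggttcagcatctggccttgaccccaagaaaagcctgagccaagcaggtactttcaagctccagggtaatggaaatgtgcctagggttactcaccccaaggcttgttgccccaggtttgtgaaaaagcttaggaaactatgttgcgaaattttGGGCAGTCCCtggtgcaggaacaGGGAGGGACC
C3ar1: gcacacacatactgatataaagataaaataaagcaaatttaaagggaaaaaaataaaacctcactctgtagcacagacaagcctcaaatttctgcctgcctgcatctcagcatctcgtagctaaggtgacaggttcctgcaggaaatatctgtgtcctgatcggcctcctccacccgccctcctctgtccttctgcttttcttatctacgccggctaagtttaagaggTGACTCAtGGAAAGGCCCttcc
C5ar1: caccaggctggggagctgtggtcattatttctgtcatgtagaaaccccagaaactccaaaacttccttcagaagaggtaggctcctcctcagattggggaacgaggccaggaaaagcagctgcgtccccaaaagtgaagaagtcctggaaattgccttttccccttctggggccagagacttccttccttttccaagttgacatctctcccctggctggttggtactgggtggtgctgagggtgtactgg
C1qc: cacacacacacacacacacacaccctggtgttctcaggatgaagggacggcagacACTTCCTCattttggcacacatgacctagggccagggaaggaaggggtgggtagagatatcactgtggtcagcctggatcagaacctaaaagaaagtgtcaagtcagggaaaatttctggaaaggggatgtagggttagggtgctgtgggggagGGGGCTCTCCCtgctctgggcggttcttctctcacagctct

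In these windows 6 motifs were searched on both strands, and a match is only a match of letters. The NF-kB letters, GGG and CC with 5 free bases between them, are held by 45.8% of 32851 promoter windows of the same 250 bases. In C3 they matched 5 times, at 3 places that begin at -197, -33 and -10 from the start site and include overlapping and opposite-strand matches. C3ar1 held TGANTCA, the AP-1 letters, with its first base at -22, a motif found in 6.75% of promoters, followed by 1 match to the NF-kB letters at -14. C1qc held GAGGAAGT, the PU.1 letters, on the opposite strand at -195, found in 2.44% of promoters, and 3 overlapping NF-kB matches from -41. C5ar1 held none of the 6 motifs. The STAT6 letters, TTC and GAA with 4 free bases between them, are held by 5.85% of promoters and were in none of the 6 member windows. The same holds for the letters of other STATs, TTC and GAA with 3 free bases between them (7.02% of promoters), and of the interferon response, GAAA repeated after 2 free bases (2.98%).

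The values deposited per library are on a log2 scale, and the transformation that gave them is not named in the sources used here. The median SD within a group was 0.019 for the 1723 tested genes with a mean log2 value under 4. It was 0.053 for the 2667 genes at 4 to 8 and 0.046 for the 8515 genes at 8 or more. The spread of weakly expressed genes is thus the smallest on this scale, and their fold changes may be understated. Their standard errors and p-values rest on the same small spread and may be too small as well, which was not tested. Tags per library totalled 17554721 to 27782568. Kdm1a checked the labels: its mean log2 value was 11.18 ± 0.04 (SD, n = 4) in shGFP and 10.30 ± 0.05 in shKDM1A control cells, a change of -45.8%, and with IL4 the means were 11.10 ± 0.03 and 10.32 ± 0.03, a change of -42.0%. All 8 macrophage markers passed the filter, and none of the B cell, fibroblast and neutrophil markers did, while Lck of the 4 T cell markers and Apoa2 of the 3 hepatocyte markers did. The summed level of the macrophage markers ranged from 17.63 to 17.68 in shGFP control, 17.31 to 17.33 in shGFP IL4, 17.83 to 17.86 in shKDM1A control and 17.74 to 17.83 in shKDM1A IL4 libraries on the log2 scale, so it was lower with IL4 in shGFP cells, overlapped between control and IL4 in shKDM1A cells and was higher with shKDM1A. The sum follows its most abundant gene, Lyz2, and the markers did not move together: with IL4 the means of Lyz2 and Cd14 were lower and those of Csf1r and Adgre1 higher in both lines. The part of these shifts in the results below was not tested. Among markers of IL4-treated macrophages, Mrc1 and Ptgs1 were measured, and Retnla and Chil3 were listed at 0 in all 16 libraries. In bulk samples fewer expressing cells and less RNA per cell cannot be told apart.

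Per length, the members covered a wide range. The mean log2 value per kb of exon over all 16 libraries was 11.13 for Cfp, 7.86 for C3ar1, 7.58 for C5ar1, 4.18 for C3, 3.61 for Cfb, 3.18 for C1qa, 2.81 for C1qc, 2.74 for C1qb and 0.83 for C4b. Per row, without length, Cfp lay above 91.1% of the genes tested and the 3 C1q chains above 8.15% to 10.8% of them, depending on the group. Neighbours in this order had no overlapping libraries within any group, except C5ar1 and C3ar1 in shKDM1A control cells (means 7.57 and 7.56 per kb). The order of these receptors changed with IL4: in shGFP cells C5ar1 lay above C3ar1 without IL4 (7.56 and 7.27 per kb) and below it with IL4 (7.53 and 8.28 per kb).

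**Figure D1:**
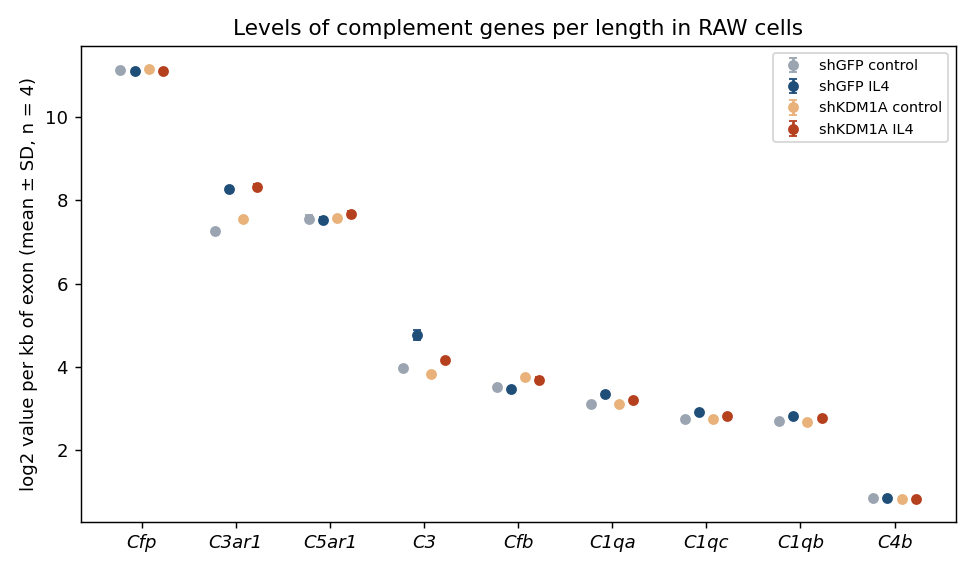
Mean log2 value per kb of exon (vertical axis, ± SD, n = 4 libraries) of the 9 complement genes in the 4 groups of RAW cells, ordered by the mean over all libraries. Cfp (11.13 over all libraries) sits at the top and C4b (0.83) at the bottom, and C3ar1 and C3 move most between the groups.

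To ask which complement genes responded to IL4, control and IL4 libraries were compared within each line with limma and Benjamini-Hochberg adjustment over the 12905 genes. In shGFP cells 5 of 9 members rose and 0 fell, while 26.9% of all genes tested were called, 13.1% as higher. In shKDM1A cells the same 5 members, C1qa, C1qb, C1qc, C3 and C3ar1, rose and 0 fell, with 27.1% of all genes called and 13.6% as higher. The median log2 change of the 9 members was 0.13 in shGFP and 0.08 in shKDM1A cells, while the median of all genes tested was -0.0005 and -0.0025. In each line the libraries of the control and IL4 groups did not overlap for 5 members, with a share of 28.3% and 25.7% among all genes. C4b, Cfb, Cfp and C5ar1 did not pass the test in either line.

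To ask what KDM1A depletion did, shKDM1A and shGFP cells were compared at each treatment. Without IL4, C3ar1 and Cfb were higher and C3 was lower in shKDM1A cells, 3 of 9 members called against 38.2% of all genes (19.7% higher and 18.4% lower). With IL4, Cfb and C5ar1 were higher and C1qa, C1qb, C1qc and C3 were lower, 6 of 9 called against 40.7% of all genes (20.9% higher and 19.8% lower). These backgrounds are high, and the share without IL4 was close to its background. Groups did not overlap for 4 members without IL4 (37.4% of all genes) and for 5 with IL4 (36.4%). The difference between the IL4 responses of the lines was tested as an interaction term, and 4 members, C1qa, C1qc, C3 and C3ar1, had a smaller response in shKDM1A cells and 0 a larger one. Among all genes 6.13% were called in this test, 2.57% as lower and 3.56% as higher. The comparisons share libraries, so their results are not independent of each other. The panels of differences per gene show these results side by side.

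**Figure D2:**
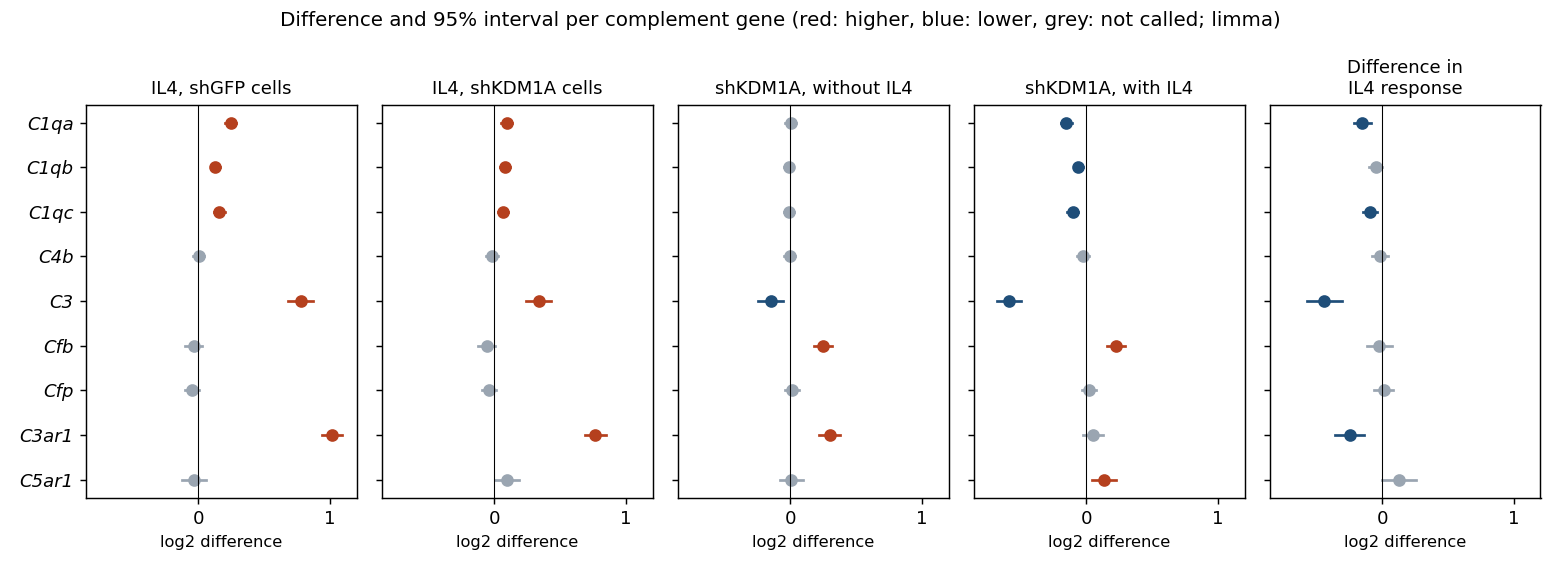
Log2 difference (horizontal axis) with its 95% interval for each complement gene in 5 comparisons of RAW cells, from limma. Red marks genes called higher, blue genes called lower and grey genes not called: IL4 raised 5 members in each line, and C1qa, C1qc, C3 and C3ar1 are lower in the panel of the difference in IL4 response, where the call of C1qc was lost under other settings.

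C3, the component on which all pathways converge, lies on chromosome 17 of mm9 from 57343390 to 57367559, minus strand. In shGFP cells its log2 values were 6.34, 6.38, 6.31 and 6.28 without IL4 and 7.13, 7.21, 7.15 and 6.93 with IL4. In shKDM1A cells they were 6.16, 6.17, 6.23 and 6.15 without IL4 and 6.53, 6.53, 6.51 and 6.49 with IL4. Every IL4 library lay above every control library of its line, and the shKDM1A libraries lay below the shGFP libraries at both treatments. IL4 raised C3 by 0.78 (SE 0.04, adjusted p = 8.6e-10), which is 1.71-fold, in shGFP cells and by 0.34 (SE 0.04, adjusted p = 2.2e-05), 1.26-fold, in shKDM1A cells. The rise in shGFP cells ranked 40 among the 12905 genes. In shKDM1A cells C3 was lower without IL4 (log2 difference -0.15, SE 0.04, adjusted p = 0.013) and with IL4, where it differed by -33.5% (log2 difference -0.59, SE 0.04, adjusted p = 1.7e-08). The response to IL4 was smaller in shKDM1A cells by a log2 difference of -0.44 (95% interval -0.57 to -0.31, adjusted p = 0.00057). On the unlogged scale the group mean rose by 57.5 units with IL4 in shGFP and by 19.0 units in shKDM1A cells. All 5 calls of C3 held under every alternative setting.

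C3ar1 encodes the receptor of C3a and lies on chromosome 6 from 122797158 to 122806175, minus strand. Its log2 values in shGFP cells were 9.34, 9.44, 9.38 and 9.31 without IL4 and 10.34, 10.44, 10.41 and 10.34 with IL4. In shKDM1A cells they were 9.69, 9.70, 9.67 and 9.60 without IL4 and 10.36, 10.50, 10.39 and 10.47 with IL4. The control libraries of the lines stood apart, with shKDM1A higher, whereas the IL4 libraries of the lines overlapped. IL4 raised C3ar1 2.02-fold in shGFP cells (log2 difference 1.01, SE 0.04, adjusted p = 3.9e-12) and 1.70-fold in shKDM1A cells (0.77, SE 0.04, adjusted p = 1.5e-10). These rises ranked 21 and 34 among all genes tested and were the highest of the members in each line. Without IL4 the gene was 22.8% higher in shKDM1A cells (log2 difference 0.30, SE 0.04, adjusted p = 7.3e-06). With IL4 the difference was 0.05 (95% interval -0.03 to 0.13, adjusted p = 0.32). The smaller response in shKDM1A cells, a log2 difference of -0.25 (95% interval -0.36 to -0.14, adjusted p = 0.011), therefore went with a higher level before IL4, unlike C3, whose level before IL4 was lower. On the unlogged scale the mean rose by 673 units in shGFP and 569 units in shKDM1A cells.

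**Figure D3:**
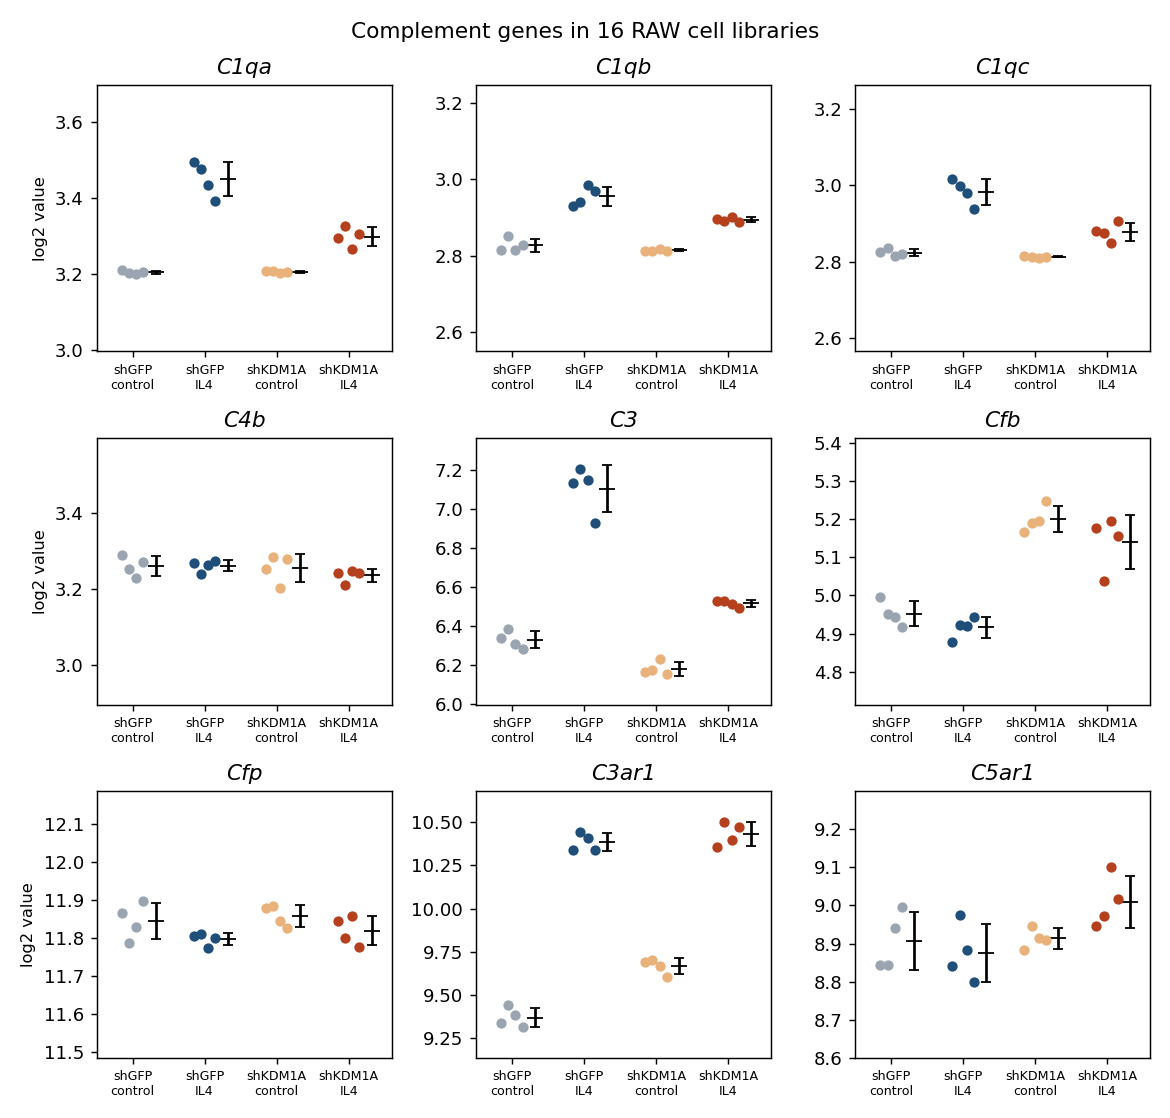
Log2 value of each of the 9 complement genes (vertical axis, scale set per gene) in every library of the 4 groups, with mean ± SD (n = 4) as black bars. C3 (7.10 in shGFP IL4 and 6.52 in shKDM1A IL4 libraries on average) rises less with IL4 in shKDM1A cells, as does C1qa, C3ar1 starts higher in those cells and its IL4 libraries overlap between the lines, and Cfb is higher with shKDM1A at both treatments.

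The C1q chains lie together on chromosome 4 on the minus strand, C1qb from 136436041 to 136442115, C1qc from 136445717 to 136448829 and C1qa from 136451831 to 136454759. Their values were low and changed by small amounts. C1qa had log2 values of 3.21, 3.20, 3.20 and 3.21 in shGFP control and 3.49, 3.48, 3.43 and 3.39 in shGFP IL4 libraries. In shKDM1A cells C1qa had log2 values of 3.21, 3.21, 3.20 and 3.20 without IL4 and 3.30, 3.33, 3.27 and 3.30 with IL4. The controls of the lines overlapped, and every IL4 library of shGFP cells lay above every IL4 library of shKDM1A cells. C1qb ranged from 2.81 to 2.85 in shGFP control and from 2.93 to 2.98 in shGFP IL4 libraries, and from 2.81 to 2.82 and from 2.89 to 2.90 in shKDM1A cells. C1qc ranged from 2.82 to 2.84 and from 2.94 to 3.02 in shGFP cells, and in shKDM1A cells it was at 2.81 in all 4 control libraries and from 2.85 to 2.91 with IL4. The control libraries thus hardly differed, a range of 0.003 to 0.04 within a group and gene, and such a spread on this scale was not taken as the counting error.

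IL4 raised the log2 value of C1qa by 0.24 (SE 0.02, adjusted p = 1.6e-07), of C1qb by 0.13 (SE 0.02, adjusted p = 1.6e-05) and of C1qc by 0.16 (SE 0.02, adjusted p = 6.6e-06) in shGFP cells. In shKDM1A cells the rises were 0.09 (adjusted p = 0.0032), 0.08 (adjusted p = 0.0014) and 0.07 (adjusted p = 0.015). Without IL4 no chain differed between the lines in limma, with log2 differences of 0.001, -0.01 and -0.01 for C1qa, C1qb and C1qc. With IL4 all 3 were lower in shKDM1A cells, by log2 differences of -0.15 (adjusted p = 2.4e-05), -0.06 (adjusted p = 0.0070) and -0.11 (adjusted p = 0.00029). The response to IL4 was smaller in shKDM1A cells for C1qa, at -0.15 (95% interval -0.21 to -0.09, adjusted p = 0.0065). For C1qb it was -0.05 (95% interval -0.10 to 0.0009, adjusted p = 0.23), which did not pass. For C1qc the difference of -0.09 had an adjusted p of 0.048, a call that was lost when the libraries were median-centred (adjusted p = 0.075) or quantile-normalised (adjusted p = 0.079). It was also lost without any of 14 of the 16 libraries (adjusted p up to 0.093) and, among these omissions, remained only without replicate 4 of shGFP IL4 or replicate 4 of shKDM1A IL4.

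C4b, the next component of the classical pathway, lies on chromosome 17 from 34865326 to 34880842 and passed no test. Its log2 values stayed between 3.20 and 3.29 in all 16 libraries, and its differences lay between -0.03 and 0.001. C4b has a near-identical copy, C4a, whose group means were 2.76 to 2.78 and which passed no test either, and reads of the copies may have been split between them, so both values are uncertain.

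Cfb, the serine protease of the alternative pathway convertase, lies on chromosome 17 from 34993319 to 34999459, minus strand. Its log2 values were 5.00, 4.95, 4.94 and 4.92 in shGFP control and 4.88, 4.92, 4.92 and 4.94 in shGFP IL4 libraries. In shKDM1A cells Cfb had 5.17, 5.19, 5.20 and 5.25 without IL4 and 5.18, 5.04, 5.20 and 5.16 with IL4. All 8 shKDM1A libraries lay above all 8 shGFP libraries. Cfb was 18.7% higher in shKDM1A cells without IL4 (log2 difference 0.25, SE 0.03, adjusted p = 7.3e-06) and 16.9% higher with IL4 (0.23, SE 0.03, adjusted p = 2.0e-05). IL4 changed it by -0.04 (adjusted p = 0.44) in shGFP and -0.06 (adjusted p = 0.18) in shKDM1A cells, neither past the threshold. In GENCODE M1 the gene model Gm20547 covers 2246 of the 2825 exon bases of Cfb on the same strand, so reads of these models cannot be told apart.

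Cfp, which encodes properdin, lies on chromosome X from 20502580 to 20508681, minus strand, and had the highest level of the members. Its log2 values lay between 11.77 and 11.90 in all 16 libraries, and the groups overlapped in every comparison. With IL4 it differed by -0.05 (95% interval -0.10 to 0.006, adjusted p = 0.19) in shGFP and by -0.04 (95% interval -0.09 to 0.01, adjusted p = 0.30) in shKDM1A cells. Between the lines Cfp differed by 0.01 (95% interval -0.04 to 0.07) without IL4 and 0.02 (95% interval -0.03 to 0.08) with IL4.

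C5ar1, the receptor of C5a, lies on chromosome 7 from 16832094 to 16844687, minus strand. Its log2 values in shGFP cells were 8.84, 8.84, 8.94 and 9.00 without IL4 and 8.84, 8.98, 8.88 and 8.80 with IL4. In shKDM1A cells they were 8.88, 8.95, 8.91 and 8.91 without IL4 and 8.95, 8.97, 9.10 and 9.02 with IL4. The groups overlapped in every comparison. IL4 changed C5ar1 by -0.03 (adjusted p = 0.67) in shGFP and by 0.10 (adjusted p = 0.11) in shKDM1A cells. With IL4 it was called higher in shKDM1A cells (log2 difference 0.13, SE 0.04, adjusted p = 0.019), but an exact two-sided permutation test over these 8 libraries gave p = 0.086, where the smallest p that 4 against 4 libraries allow is 0.029. The call was also lost without any filter on low values (adjusted p = 0.062), without shGFP IL4 replicate 1 (adjusted p = 0.051) or replicate 4 (adjusted p = 0.065), and without shKDM1A IL4 replicate 3 (adjusted p = 0.068).

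Of 43 other complement genes listed by role, all 43 had a row and 17 passed the filter. The terminal components that build the membrane attack complex were largely below it, with C8g as the only 1 of 7 tested, and Cfd, the only other gene of the alternative pathway listed, did not pass either. IL4 raised 2 and lowered 1 of the 17 in shGFP cells (26.9% of all genes called) and raised 4 and lowered 2 in shKDM1A cells (27.1% of all genes). In shKDM1A against shGFP cells 4 were higher and 4 lower without IL4 (38.2% of all genes), and 5 were higher and 4 lower with IL4 (40.7% of all genes). The median log2 difference of the 17 genes was 0.02 and 0.004 for IL4 in shGFP and shKDM1A cells, and 0.009 and 0.002 for shKDM1A without and with IL4. The difference in IL4 response, shKDM1A minus shGFP, was called below 0 for 2 of the 17, Itgax and Itgam, and above 0 for none, against 6.13% called among all genes.

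Called changes of at least 0.3 on the log2 scale were found for 4 of these genes, 3 of them integrin chains of the receptors for cleaved C3. Itgax, which encodes CD11c, rose with IL4 from a mean of 6.69 to 7.23 in shGFP cells (log2 difference 0.54, adjusted p = 3.9e-09) and from 6.30 to 6.59 in shKDM1A cells (0.29, adjusted p = 7.7e-06). It was lower in shKDM1A cells, by log2 differences of -0.39 (adjusted p = 1.4e-07) without IL4 and -0.64 (adjusted p = 3.0e-10) with IL4, and its response to IL4 was smaller there (-0.25, SE 0.05, adjusted p = 0.0065). Itgam, which encodes CD11b, was higher in shKDM1A cells by 0.41 (adjusted p = 2.4e-08) without IL4 and by 0.25 (adjusted p = 8.4e-06) with IL4. IL4 changed Itgam by -0.03 (adjusted p = 0.62) in shGFP and -0.19 (adjusted p = 0.00028) in shKDM1A cells, a difference in response of -0.16 (SE 0.04, adjusted p = 0.044). Itgb2, the shared beta chain CD18, was higher in shKDM1A cells by 0.36 (adjusted p = 3.3e-09) and 0.32 (adjusted p = 1.3e-08) and fell with IL4 by 0.15 (log2 difference -0.15, adjusted p = 0.00012) and 0.19 (-0.19, adjusted p = 1.4e-05). Fcna, a ficolin of the lectin pathway, was higher in shKDM1A cells by 0.47 (adjusted p = 5.0e-06) and 0.40 (adjusted p = 2.4e-05), with IL4 changes of -0.04 and -0.10 that did not pass. Among the other receptors C5ar2, the second receptor for C5a, was named after its values were seen. It was lower in shKDM1A cells without IL4 (log2 difference -0.16, adjusted p = 0.00059) and with IL4 (-0.18, adjusted p = 0.00020). IL4 raised C5ar2 by 0.11 (adjusted p = 0.015) in shGFP and by 0.09 (adjusted p = 0.041) in shKDM1A cells.

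**Figure D4:**
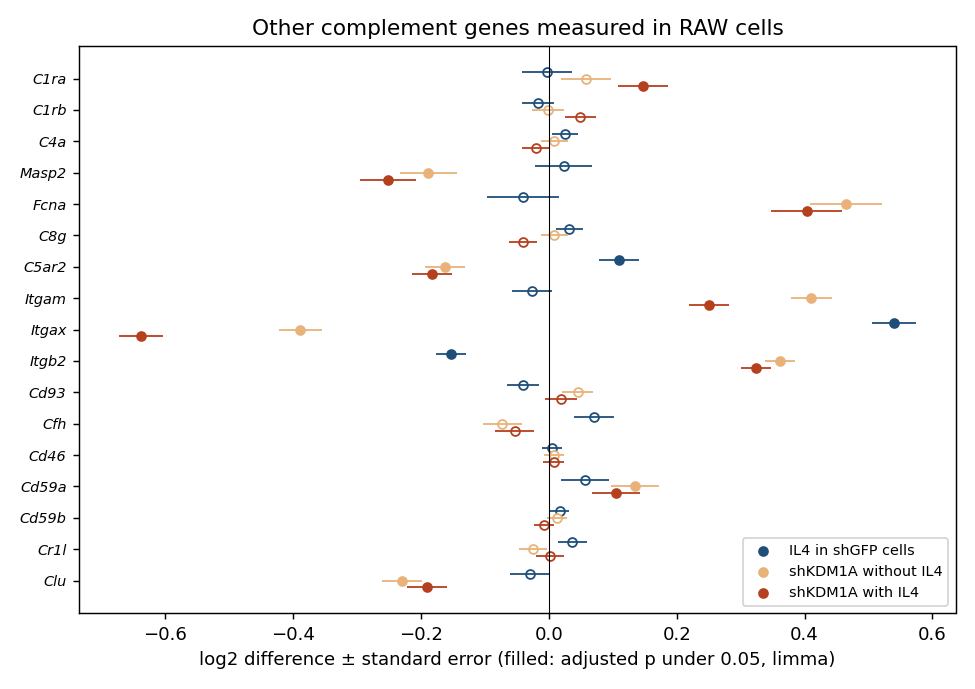
Log2 difference ± standard error (horizontal axis) of the 17 other complement genes that passed the filter, for IL4 in shGFP cells and for shKDM1A against shGFP cells without and with IL4 (4 libraries per group); filled points passed limma's adjusted threshold. Itgax moves in opposite directions with IL4 (0.54) and with shKDM1A (-0.39 and -0.64), and Itgam, Itgb2 and Fcna are higher with shKDM1A.

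The genes whose pattern over the 16 libraries was nearest to a member were found by the root mean square difference of log2 values, each gene centred on its own mean, as a description with no test. For C3, whose own root mean square spread was 0.36, these were Abcc3 (0.10), Col15a1 (0.10) and Megf9 (0.11), which rose with IL4 and whose means were lower with shKDM1A. Means of Abcc3 were 7.63 and 8.35 in shGFP and 7.41 and 7.91 in shKDM1A cells without and with IL4. For C3ar1, with a spread of 0.46, the nearest were B4galt1 (0.10), Hfe (0.10) and Egr2 (0.11), and Egr2, an IL4-responsive transcription factor, had means of 6.98 and 7.89 in shGFP and 7.10 and 7.96 in shKDM1A cells. For C1qa, with a spread of 0.10, the nearest gene was its neighbour C1qc (0.03), followed by Lig1 and Nfix (0.04 each). For C1qb and C1qc the nearest was Wnt1 (0.02 each), itself at group means of only 2.53 to 2.67. For Cfb, with a spread of 0.13, they were Rnf114, Fbxo22 and Serinc1 (0.04 each), higher on average in shKDM1A cells at both treatments. C5ar1, Cfp and C4b varied little over the libraries (spreads of 0.08, 0.04 and 0.02), with differences from their nearest genes of 0.04, 0.02 and 0.02, and no pattern is read from those genes.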

How the data were processed

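RNA-seq of RAW cells was analysed: 16 libraries in 4 groups, assigned from the labels. The authors aligned reads to mm9 and counted exons of RefSeq genes on both strands with HOMER, keeping 1 row for each gene, and the labels list HISAT2, HOMER and DESeq2 without versions. For each library the authors deposited values on a log2 scale, which vary less between libraries in weakly expressed genes. The transformation is not named in the sources used here. Decimal commas were read as points. The tables also hold the authors' comparisons (p-values, adjusted p-values and log2 fold changes), and the BMDM table holds nothing else. These were not used, so the planned BMDM description gives no value.

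Values were tested in R 4.3.3 with limma 3.58.1 (lmFit on 4 group means over all 16 libraries, contrasts, eBayes, two-sided), after keeping genes with a log2 value no lower than 1 in 4 or more libraries, and p-values were adjusted by Benjamini-Hochberg over 12905 genes per contrast and a threshold of 0.05. Intervals are 95% from the moderated fit. The step was checked on simulated data. The members, the other complement genes and the marker lists were chosen with earlier results of these data known. All 9 members were named, other complement genes where called with an absolute log2 difference of at least 0.3 (C4a, C8g, Cfd and C5ar2 are named outside this rule), and for each member the 3 nearest genes. Motifs were searched in RefSeq promoters, coordinates of genes are those of the deposited table (mm9), and GENCODE M1 was used for overlaps. Alternatives were the filter, the groups fitted, a replicate block, scaling, a trended prior variance, an exact permutation test and leaving out each library. ATAC-seq, ChIP-seq, CUT&Tag and 4C-seq were not analysed here.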

Additional observations from a re-analysis of the deposited data

Results flagged for a closer look

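The response to IL4 differed between the lines by the interaction term for 4 members, being smaller in shKDM1A than in shGFP cells: the log2 difference was -0.44 for C3, -0.25 for C3ar1, -0.15 for C1qa and -0.094 for C1qc, where the call of C1qc did not hold under several settings.

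Within groups of 4 libraries, 2 of 36 sets of member values had a library far from the others. C1qb was at 2.82 in shKDM1A control replicate 3, with the other 3 libraries at 2.81, and C4b was at 3.21 in shKDM1A IL4 replicate 2, with the others at 3.24 to 3.25. Chance marks about 1 in 20 such groups, and both gaps are small on the log2 scale.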

How the results depend on the processing

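Of 23 calls of members over the 5 comparisons, 21 held with the same direction under every alternative that could be fitted, and 0 changed direction. Both calls that were lost, C5ar1 between the lines with IL4 and C1qc in the difference of IL4 responses, are described with their values above. The stricter filter of at least 5 in at least 4 libraries leaves only 5 of the 9 members, without the C1q chains and C4b. It gave 2 members called for IL4 in each line, 3 for shKDM1A without IL4, 3 with IL4 and 2 for the difference in response. Leaving out 1 library in turn gave 5 called in each line for IL4, 3 without IL4, 5 to 6 with IL4 and 3 to 4 for the difference. Shares of all genes called were not computed for any alternative setting. The counts under these settings therefore have no background to be read against.

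Replicate numbers are shared between groups but were not taken to pair the libraries, since the study's methods state no pairing. Deviations from group means correlated between -0.34 and 0.27 for the 24 pairs with the same number and between -0.33 and 0.36 for the 72 others, and in 22 of 48 cases a library correlated best with its own number, where 12 would be expected if the number did not matter. With a replicate block 5, 5, 3, 6 and 3 members were called in the 5 comparisons, the C1qc difference being the call not made (adjusted p = 0.070), and the block changed no other call.

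Direction changed for 8 values that had passed no test, all near 0. Under quantile normalization these were C4b with IL4 in shGFP cells (-0.0069), C1qa (-0.0049), C5ar1 (-0.00042) and Cfp (-0.030) between the lines without IL4, Cfp with IL4 (-0.034) and Cfp in the difference of responses (-0.0045). Leaving out 1 library gave -0.0090 to 0.011 for C4b with IL4 in shGFP cells. Between the lines without IL4 it gave -0.00045 to 0.0029 for C1qa, -0.014 to 0.037 for C5ar1, -0.0057 to 0.031 for Cfp and -0.016 to 0.012 for C4b. For the difference of responses it gave -0.0085 to 0.028 for Cfp and -0.040 to 0.012 for Cfb. The exact permutation test of C1qc between the lines without IL4, where limma made no call at -0.01, gave p = 0.029, the smallest it allows. Causes were not tested. No scaling moved the median of all genes by over 0.1.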
